A study of Caenorhabditis elegans with 2 samples.

Results

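The genes described here are the 99 small nuclear RNA (snRNA) genes of Caenorhabditis elegans, out of 46890 genes on the nuclear chromosomes. They were chosen as every nuclear gene with the biotype snRNA in the Ensembl annotation of WBcel235, leaving out the spliced leader genes, whose symbols start with sls-. The measurement was chromatin immunoprecipitation followed by sequencing (ChIP-seq) of F44E2.7, which RefSeq annotates as a putative zinc finger protein. The animals were whole L4 larvae, 48 hours old, of strain OP381, synchronised by starving L1 larvae after bleaching. They carried the transgene wgIs381, which encodes F44E2.7 fused to TY1, EGFP and 3xFLAG, along with unc-119(+) in an unc-119(tm4063) background. The transgene adds copies of the gene to the strain's own, and the labels do not say which promoter drives it. The antibody was against GFP according to the description in the labels, whereas the antibody field reads F44E2.7. There were 2 biological replicates of this 1 group, and no untagged sample was analysed here. Read counts are in none of the files used here, so depth is unknown and the values have no counting error for reads. Since whole animals were used, each value is an average over their tissues.

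snRNAs are the RNA cores of the spliceosome, the particle that removes introns from messenger RNA precursors. In animals most snRNA genes are transcribed by RNA polymerase II, while the U6 snRNA is made by RNA polymerase III from a promoter that lies upstream of the gene and holds a proximal sequence element and a TATA box. smy- genes encode nematode RNAs that, like most snRNAs, associate with Sm proteins. Neither the Ensembl nor the RefSeq annotation names any of the 99 genes as U1, U2, U4, U5 or U6, so those classes could not be compared by name. The genes were instead grouped by the similarity of their annotated sequences (at least 80% identity over at least 80% of the shorter one), which gave 20 families, 12 of them of 1 gene. The families are called here by their median length. The biotype is wider than its name: it includes 10 smy- genes, mir-1831, a 22-base microRNA entry nested in sup-39, and 12 genes that overlap an exon of a protein-coding gene.

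The largest family had 23 genes of 93 to 108 bases, and 14 of them have exactly the same 102 bases. W05B2.8, the gene with the strongest peak of the 99, is one of these. All sequences below are from the RefSeq WBcel235 genome and run 5′ to 3′ in the direction of transcription. The 23 genes have 8 distinct body sequences, and F54D8.7, of 101 bases, is not among the 14 identical copies. Copies with the same body can be told apart only by their flanks, upstream or downstream. The 100 bases upstream of the 5 copies with a peak in the authors' thresholded list are shown next, in order of signal. Capitals mark matches to 3 words, TATATA, GTCTGCCG and CGGAACCC, which are described further on.
W05B2.8: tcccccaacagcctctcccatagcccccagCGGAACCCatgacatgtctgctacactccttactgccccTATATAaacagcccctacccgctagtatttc
C28A5.7: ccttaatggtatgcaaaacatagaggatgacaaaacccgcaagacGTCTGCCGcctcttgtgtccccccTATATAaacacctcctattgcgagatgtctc
F54D8.7: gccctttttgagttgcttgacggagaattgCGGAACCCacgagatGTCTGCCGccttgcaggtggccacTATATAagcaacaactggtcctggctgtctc
R07E5.16: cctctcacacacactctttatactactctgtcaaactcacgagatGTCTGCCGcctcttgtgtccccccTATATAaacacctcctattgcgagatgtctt
K09C6.12: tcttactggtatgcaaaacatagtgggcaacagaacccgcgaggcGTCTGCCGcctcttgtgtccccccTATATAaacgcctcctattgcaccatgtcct
They lie at chrIII:10989579-10989678, plus strand; chrIII:4426956-4427055, minus strand; chrIII:5080899-5080998, minus strand; chrIII:4414085-4414184, plus strand; and chrV:858991-859090, plus strand. C28A5.7 and K09C6.12 have the same base at 85 of 100 upstream positions, and C28A5.7 and R07E5.16 at 71 of 100. Shown for contrast are 3 copies with no thresholded peak, K09B11.16 (chrIV:13443645-13443744, plus strand), F54C8.10 (chrIII:9449469-9449568, plus strand) and Y9C9A.111 (chrIV:4930854-4930953, plus strand).
K09B11.16: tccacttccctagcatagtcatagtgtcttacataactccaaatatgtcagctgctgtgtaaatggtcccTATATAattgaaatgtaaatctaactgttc
F54C8.10: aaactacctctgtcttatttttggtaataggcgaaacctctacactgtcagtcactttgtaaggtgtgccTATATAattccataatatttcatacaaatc
Y9C9A.111: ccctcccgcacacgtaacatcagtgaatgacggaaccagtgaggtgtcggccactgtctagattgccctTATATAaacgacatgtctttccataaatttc
K09B11.16 and W05B2.8, whose gene bodies are identical, have the same base at 25 of 100 upstream positions when compared without gaps. TATATA starts 31 bp upstream of W05B2.8 and 30 bp upstream of K09B11.16, so the regions are out of register there. That count therefore cannot say how alike they are.

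M163.13 is an 80-base gene that forms a family of its own (chrX:14476867-14476946, plus strand). Its body and its upstream region (chrX:14476767-14476866, plus strand) are shown because it is the only snRNA gene outside the 102-base family that holds both TATATA and GTCTGCCG upstream.
M163.13 gene: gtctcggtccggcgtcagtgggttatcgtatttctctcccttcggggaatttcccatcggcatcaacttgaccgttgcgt
M163.13 upstream: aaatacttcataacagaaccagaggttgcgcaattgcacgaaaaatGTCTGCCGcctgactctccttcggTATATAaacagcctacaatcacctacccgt
The 165-base family holds a further pair of genes with a thresholded peak, sup-6 (chrII:12944968-12945067, minus strand) and T08G5.11 (chrV:14028636-14028735, minus strand). F08H9.11 (chrV:14468734-14468833, minus strand), of the same family, has no thresholded peak. Its upstream region has the same base as that of T08G5.11 at 85 of 100 positions. These are 42 of the 55 positions nearest the gene and 43 of the 45 beyond, so most differences lie near the gene.
sup-6: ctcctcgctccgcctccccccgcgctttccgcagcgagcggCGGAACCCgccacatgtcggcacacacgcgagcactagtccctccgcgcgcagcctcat
T08G5.11: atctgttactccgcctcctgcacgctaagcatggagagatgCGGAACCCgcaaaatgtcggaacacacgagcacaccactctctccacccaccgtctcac
F08H9.11: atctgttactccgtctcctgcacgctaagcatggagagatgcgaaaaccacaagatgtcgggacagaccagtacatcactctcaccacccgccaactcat

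F44E2.7 peaks stood at a minority of the snRNA genes. In the thresholded list made from both replicates, 9 of 99 snRNA genes had a summit within 200 bp (9.09%, exact Clopper-Pearson 95% interval 4.24 to 16.6%, counting error over genes only). Over all nuclear genes the same count was 1168 of 46890 (2.49%), and over the 9100 nuclear genes of 50 to 300 bp outside the protein-coding class it was 582 (6.40%). The share of snRNA genes was thus above that of all genes, and its interval included that of the short genes. That short set also holds snRNA, tRNA, snoRNA and sls- genes, so it is not a background free of them. Among other small RNA genes it was 51 of 346 snoRNA genes (14.7%), 5 of 30 sls- genes (16.7%) and 250 of 612 tRNA genes (40.8%). These differences were not tested, since genes are not replicates and identical copies share their sequence. No tRNA, snoRNA or sls- gene lay within 200 bp of any of the 99 snRNA genes.

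The 9 genes were W05B2.8, C28A5.7, F54D8.7, R07E5.16 and K09C6.12 of the 102-base family, sup-6 and T08G5.11 of the 165-base family, F32B5.9 of the 122-base family and M163.13. Signal values are the authors' own for each peak and serve to rank the peaks of 1 list. The 9 peaks had a median signal of 100.05 (range 69.8 to 189), against a median of 85.1 over the 896 peaks of the list (interquartile range 75.1 to 106). By the same rule the median was 97.0 at tRNA genes, 109.7 at sls- genes and 138 at snoRNA genes. Of the 9, 5 were above the list's median and 4 were in its upper quartile. Each gene had a peak of its own, so the 9 genes account for 9 of the 896 peaks.

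**Figure D1:**
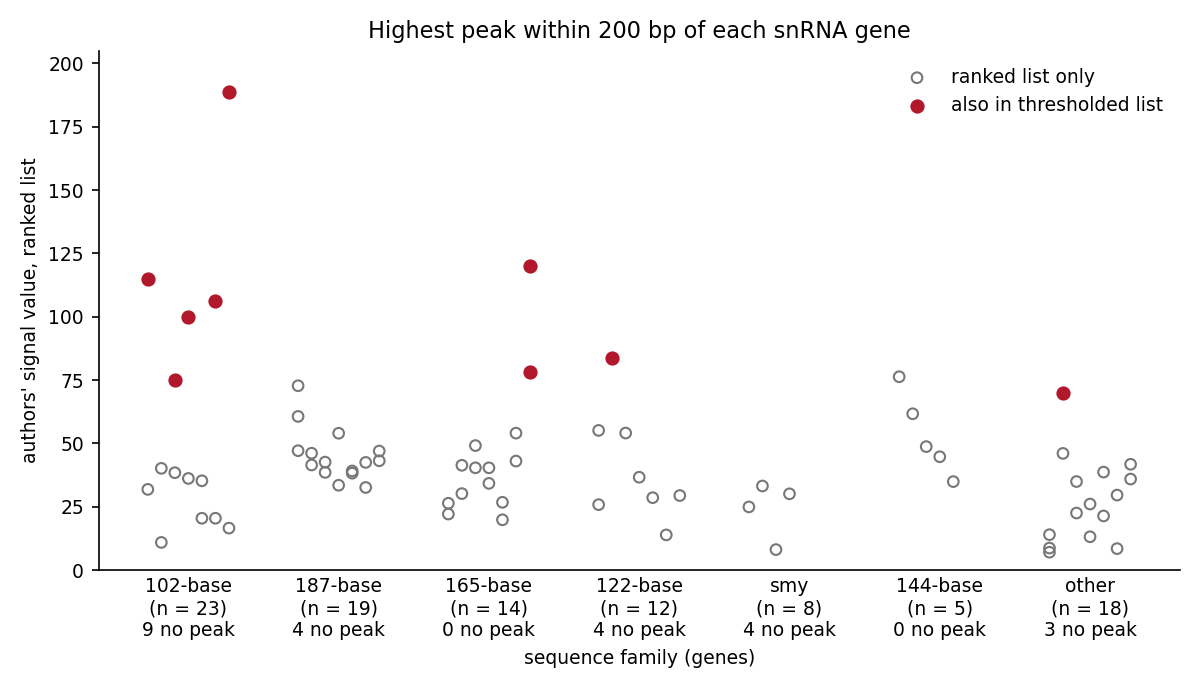
Highest peak within 200 bp of each snRNA gene in the ranked list of both replicates, by sequence family; the y axis is the authors' signal value, filled points are the 9 genes that also have a thresholded peak, and the genes with no ranked peak are counted under each family. The thresholded peaks lie between 69.8 and 189, with 5 of them in the 102-base family and none in the 187-base, smy or 144-base families.

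W05B2.8 had the strongest peak. Its signal was 189 in the list of both replicates, rank 25 of 896. Its irreproducible discovery rate (IDR, which is low where a peak ranks consistently high in a pair of lists) was 1.27e-04. In the ranked list of each replicate alone the signal was 94.2 in replicate 1 and 94.5 in replicate 2. The peak ranked 37 in replicate 1 and 88 in replicate 2, and it passed the authors' IDR threshold of 0.01 in both. W05B2.8 lies in an intron of dhc-4 on the same strand, and the peak spanned chrIII:10989596-10989865 with the summit 52 bp downstream of the gene's 5′ end.

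sup-6 followed with a signal of 119.9, rank 142 and an IDR of 0.00905, just inside the threshold. Its signal was 59.2 in replicate 1 and 71.0 in replicate 2, and it too passed the threshold in both. The gene lies in an intron of F58G1.7, and the ncRNA genes F58G1.11 and F58G1.12 lie within 200 bp of it, so its peak cannot be assigned to 1 of the 3 genes. The summit stood 143 bp downstream of the 5′ end of the 165-base gene in the list of both replicates, 254 bp in replicate 1 and 131 bp in replicate 2, which puts that of replicate 1 beyond the gene's 3′ end.

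The 4 other copies of the 102-base family ranked between 160 and 668. C28A5.7 had a signal of 115, with 52.1 in replicate 1 and 61.1 in replicate 2. F54D8.7 had 106, with 48.5 in replicate 1 and 57.3 in replicate 2. R07E5.16 had 100.05, with 52.0 in replicate 1 and 41.0 in replicate 2. R07E5.16 passed the threshold in the list of replicate 1, where it ranked 248 in the ranked list, while in replicate 2 it ranked 1451 with an IDR of 0.787. K09C6.12 was the weakest of the family, with 75.1 in the list of both replicates, 30.8 in replicate 1 and 45.3 in replicate 2. C28A5.7 lies in an intron of C28A5.6, with the ncRNA gene C28A5.9 within 200 bp, R07E5.16 in an intron of mpc-1, and K09C6.12 overlaps an exon of K09C6.2, while F54D8.7 overlaps no protein-coding gene.

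The remaining 3 genes belong to other families. F32B5.9 had 83.9, with 37.5 in replicate 1 and 49.2 in replicate 2. It lies in an intron of cpz-1, on the opposite strand. T08G5.11 had 78.3, with 27.6 in replicate 1 and 45.0 in replicate 2, and the ncRNA gene T08G5.18 lies within 200 bp of it. M163.13 had 69.8, with 27.3 in replicate 1 and 44.0 in replicate 2. None of these 3 passed the threshold in a replicate's own list, nor did C28A5.7, F54D8.7 or K09C6.12.

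**Figure D2:**
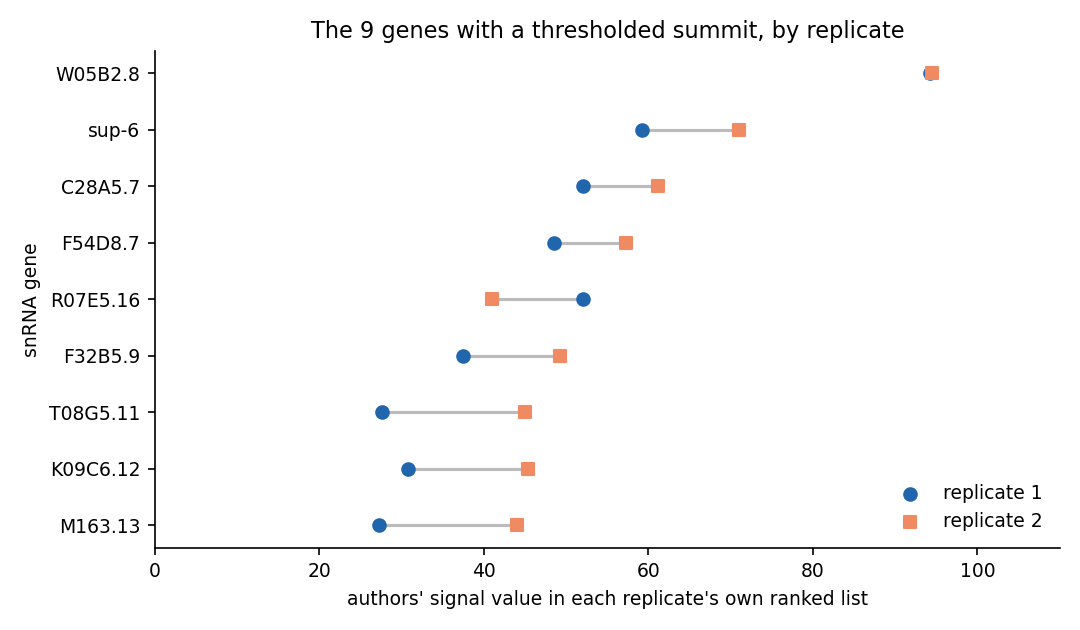
The authors' signal value of the highest peak within 200 bp of each of the 9 snRNA genes, in the ranked list of replicate 1 (circles) and of replicate 2 (squares); each list has its own scale and lines join the values of 1 gene. W05B2.8 is highest in both, at 94.2 and 94.5, and values of the 2 lists are not comparable as levels.

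Support from single replicates was limited to a few genes. In replicate 1 alone, 3 of 99 snRNA genes had a thresholded summit (3.03%), against 0.589% of all nuclear genes. In replicate 2 alone, 2 of 99 had one (2.02%), against 1.06% of all nuclear genes. The genes of replicate 2, W05B2.8 and sup-6, were among the 3 of replicate 1, and 6 of the 9 genes were in neither list. The conservative list, also made from both replicates, held 6 of the 9 and left out sup-6, T08G5.11 and M163.13, while it added C52E4.8. With 2 samples of 1 group no test of the spread between replicates was possible.

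The summits lay inside or close to the genes. The median position was 38 bp downstream of the 5′ end, with 7 of 9 summits inside the annotated gene and 2 upstream, at 20 bp in K09C6.12 and 44 bp in M163.13. M163.13 was therefore the gene nearest to the limit of 200 bp. Outside the limit, the next snRNA genes were F08G2.9, 1443 bp from a summit of signal 111, and F32D1.12, 1979 bp from a summit of signal 84.6, so no gene lay just beyond it. For C28A5.7 the summits stood 27 bp downstream in replicate 1 and 54 bp upstream in replicate 2, on either side of its 5′ end. For T08G5.11 they stood 25 bp downstream in replicate 1 and 134 bp in replicate 2. A single summit therefore did not fix the position within a gene.

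**Figure D3:**
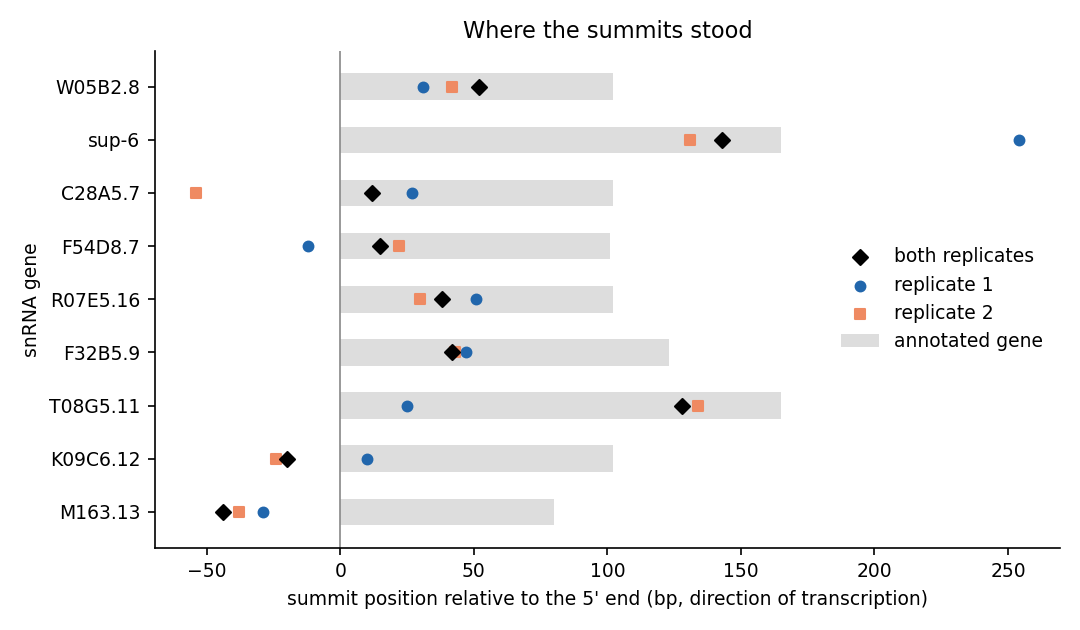
Summit position of the highest peak near each of the 9 snRNA genes, in bp from the annotated 5′ end in the direction of transcription, in the list of both replicates (diamonds) and in each replicate's ranked list (circles and squares); grey bars are the annotated genes. The summits of the list of both replicates lie between 44 bp upstream and 143 bp downstream of the 5′ end.

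By family, a thresholded summit was found at 5 of 23 in the 102-base family (21.7%, interval 7.46 to 43.7%), 2 of 14 in the 165-base family (14.3%), 1 of 12 in the 122-base family (8.33%) and 0 of 19 in the 187-base family (upper limit 17.6%). None of the 8 genes of the smy family had one, and smy-8 and smy-10, which formed families of their own, had none either (0 of 10, upper limit 30.8%). The 5 genes of the 144-base family and the 4 of the 105-base family also had none. With such numbers the intervals of the families overlapped.

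Below the threshold, most snRNA genes had a peak. In the ranked list of both replicates, which holds 108809 peaks, 75 of 99 snRNA genes had one within 200 bp (75.8%), against 55.0% of all nuclear genes and 66.6% of the short genes outside the protein-coding class. A ranked peak is thus common near any gene. The peaks of the 75 snRNA genes were 73 distinct ones, since some neighbouring genes shared a peak. The snRNA genes' ranked peaks had a median signal of 38.5 (range 7.07 to 189), against 24.0 over the list, and 60 of 75 were above the list's median. Each gene was given its highest peak, whereas the list's median is over every peak, so these medians are not like for like. An IDR above 0.05 applied to 62 of the 75. Ranked peaks near snRNA genes were found in both single-replicate ranked lists for 42 genes and in neither for 31.

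The strongest snRNA genes without a thresholded peak came from 3 families. C52E4.8 of the 144-base family had a ranked signal of 76.3, with 37.5 in replicate 1 and 53.1 in replicate 2, which was above the values of K09C6.12 and M163.13. Its −log10 IDR was 1.25, so it missed the threshold, which is set on the IDR, at a signal that other genes passed with. F56H6.16 of the 187-base family followed with 72.8, then F10D2.13 of the 144-base family with 61.7, C47F8.9 of the 187-base family with 60.7 and ZK897.4 of the 122-base family with 55.1. Between an IDR of 0.01 and 0.05 there were 4 genes, F56H6.16, F10D2.13, C47F8.9 and F38E11.10, the last with a signal of 54.1. The weakest of the 9 genes inside the threshold by signal was M163.13, at 69.8, and so the lists ordered by signal and by IDR interleaved here.

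The spread of ranked signals within families was also examined. In the 187-base family 15 of 19 genes had a ranked peak, at 32.6 to 72.8 (median 42.6), with none past the IDR threshold. All 14 genes of the 165-base family had one, at 19.9 to 119.9 (median 40.4). The lowest value was that of the 22-base entry mir-1831, nested in sup-39, and the overlapping genes T27E4.12 and T27E4.22 shared the same peak. All 5 genes of the 144-base family had one, at 34.9 to 76.3 (median 48.8), the highest median of the families of 5 or more genes. In the 122-base family it was 8 of 12, at 13.9 to 83.9 (median 33.1), and in the smy family 4 of 8, at 8.10 to 33.2 (median 27.5). The 102-base family had the widest range, with 14 of 23 genes at 10.9 to 189 (median 37.3) and 9 with no peak in that list. Of these 9, T08B6.62 and K09B11.14 had a peak in the ranked list of replicate 2, with signals of 31.0 and 24.0.

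Within the 102-base family, genes of identical sequence thus stood at both ends of the scale. On chromosome III, 4 of 7 copies had a thresholded summit, against 5.39% of all genes there, and all 7 had a ranked peak, at 35.3 to 189. On chromosome V, 1 of 2 copies had a thresholded summit, against 2.69% of all genes there. On chromosome IV none of 13 had one, against 0.812% of all genes there, and the 5 with a ranked peak were at 16.6 to 40.2. The shares of all genes rest on 3859 genes of chromosome III, 7870 of V and 19704 of IV. Gene classes were not matched between chromosomes, so these shares are not like baselines. The chromosome IV copies include the cluster K09B11.11 to K09B11.16, whose 6 genes match W05B2.8 base for base. All 7 snRNA genes on chromosome III are of this family, and none of the 36 on chromosome IV, of any family, had a thresholded summit.

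Whether reads can be placed uniquely also differed among these copies, and was taken as the share of 50-base stretches that occur once in the genome. It was 0.0% in the bodies of all 5 copies with a thresholded summit, and also in copies without one, such as K09B11.11 to K09B11.16. In the flank upstream it was 96.7 to 100% for the 5 copies with a summit, and 7.9 to 100% (median 86.45%) for the 18 without one. In the flank downstream it was 88.7 to 100% for the 5 and 77.5 to 100% for the 18. Of the 18, 7 had an upstream flank that was unique throughout, among them Y17G9A.85, T08B6.62, Y17G9A.90 and Y9C9A.111 on chromosome IV, none of which had a peak in the ranked list of both replicates. T08B6.62 had one in the ranked list of replicate 2, with a signal of 31.0. The length of the reads is unknown here, and the part of read placement in the difference among copies was not tested.

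**Figure D4:**
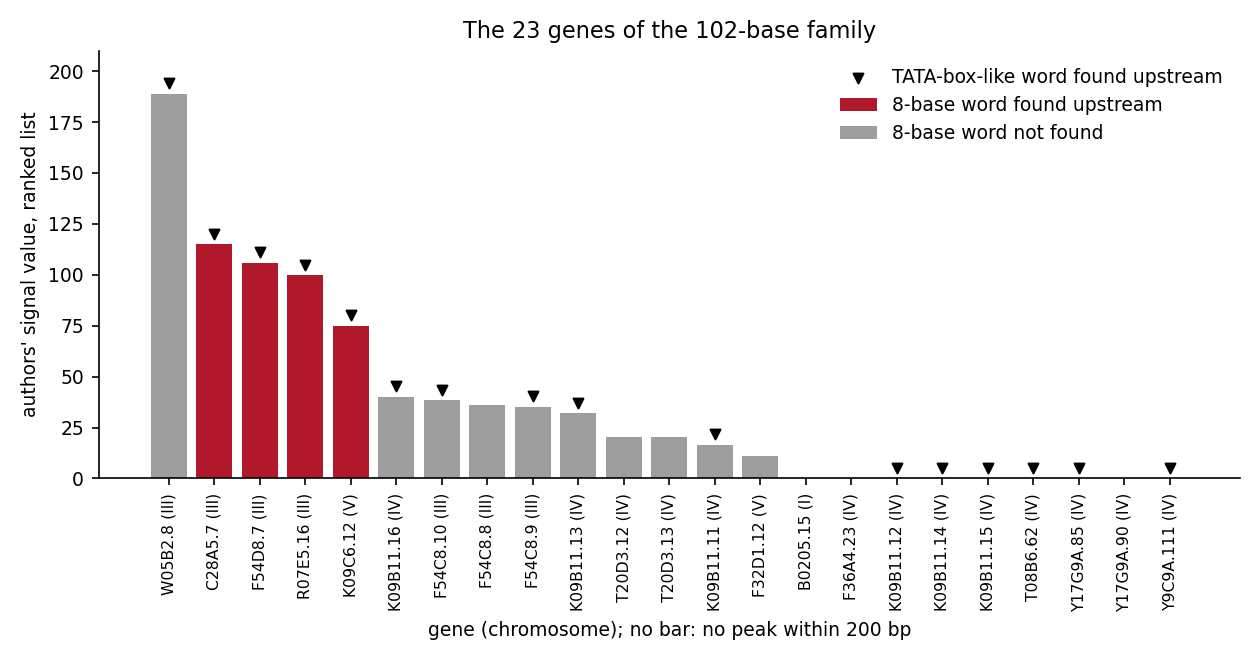
The 23 genes of the 102-base family ordered by the authors' signal value of their highest peak in the ranked list of both replicates; the chromosome stands beside each gene, and a gene with no bar has no peak within 200 bp. Red bars mark the 4 genes with GTCTGCCG in the 100 bp upstream and triangles those with TATATA there, which 11 of the 18 genes without a thresholded peak also have.

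Short words in the 100 bp upstream of the genes were then compared, searching both strands. The word TATATA, which resembles a TATA box, was found upstream of 6 of 9 snRNA genes with a thresholded summit and 14 of 90 without, and in 5.07% of 46886 upstream windows of all nuclear genes. In the 102-base family it stood 31 bp upstream of the 5′ end in all 5 copies with a summit, and 30 or 31 bp upstream in 11 of the 18 without. The related word TATAAA was found upstream of 5 of 9 with a summit and 14 of 90 without, and in 17.5% of all windows. Within the 102-base family the TATA-like word was thus present at genes of both kinds.

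The 8-base words found upstream of the largest number of snRNA genes, among 7 words that each occurred in 5 of the 20 families, were GCGGAACC and CGGAACCC, which overlap by 7 bases. Each was found upstream of 26 snRNA genes in 5 families, 5 of 9 with a summit and 21 of 90 without, and in 0.183% and 0.166% of all windows. CGGAACCC was upstream of 2 of 5 genes with a summit and 3 of 18 without in the 102-base family. In the 165-base family it was upstream of 2 of 2 with a summit and 6 of 12 without. In the smy family, where no gene had a summit, it was upstream of 5 of 8. It was upstream of no gene of the 187-base family (0 of 19) or of the 105-base family (0 of 4). Genes with and without a peak thus held it, in 5 of 20 families.

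GTCTGCCG was picked after the values had been seen, as the word found upstream of most genes with a summit and fewest without, so its counts are a description only. It was found upstream of 5 of 9 snRNA genes with a thresholded summit and 0 of 90 without, and in 0.0661% of all windows. It started 55 bp upstream of C28A5.7, F54D8.7, R07E5.16 and K09C6.12 and 54 bp upstream of M163.13, which is 24 bp before TATATA in each of the 5. The match was exact, and near-matches were not counted. Similar but inexact words also start 55 bp upstream of W05B2.8 (gtctgcta) and of Y9C9A.111 (gtcggcca), which has no thresholded peak. W05B2.8, whose peak was the strongest, did not hold the word, nor did sup-6, T08G5.11 or F32B5.9. C28A5.7, R07E5.16 and K09C6.12 are alike in the 55 bases from the word to the gene, where each pair has the same base at 49 to 54 positions, so they are not separate instances. In the 45 bases before the word, C28A5.7 and K09C6.12 have the same base at 36 positions, and R07E5.16 at 17 with C28A5.7 and at 18 with K09C6.12.

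The protein-coding genes that build and process snRNAs were examined by lists. A promoter summit, from 1000 bp upstream to 200 bp downstream of the start, was found at 2 of 84 listed genes (2.38%), against 1.51% of 19973 protein-coding genes. Both were among 40 snRNP and splicing factors: mog-4, with a signal of 109, rank 201, and the summit 226 bp upstream of the start, and snrp-200, with a signal of 59.5, rank 866, and the summit 117 bp downstream. mog-4 encodes a DEAH-box helicase of the splicing machinery and snrp-200 a homologue of the U5 snRNP helicase. None of the 7 Sm protein genes, 8 LSm protein genes, 13 genes of snRNA transcription or 16 genes of snRNA processing and assembly had one. In the single replicates it was 0 of 84 in replicate 1, against 0.290% of protein-coding genes, and 1 of 84 in replicate 2, against 0.551%. The share of the listed genes was close to that of all protein-coding genes.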

How the data were processed

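Peak lists from 2 biological replicates of 1 group were analysed, on ce11 per the labels, whose coordinates WBcel235 shares. Thresholded, conservative and ranked lists of both replicates derive from both, and 2 lists each from a single replicate, per the accompanying file notes. The aligner, the peak caller and all parameters count as not given in the sources used here. Each list holds the authors' score (0 to 1000) and their signal value, on an unstated scale. The deposited -log10 q values were not needed, the deposited -log10 IDR was used as given, and the deposited summit offset, a base position, located each peak.

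Each gene took the peak of highest signal with a summit within 200 bp. Families came from local alignments (Biopython 1.88). Symbols are RefSeq's, matched by gene ID for 99 of 99 genes. The scripts ran on pandas 2.3.3, scipy 1.17.1, numpy 2.4.6 and matplotlib 3.10.9 under Python 3.11.15, and peak assignment was tested on simulated data. Intervals are 95% Clopper-Pearson. Named genes were those with a thresholded summit, the 5 next by ranked signal, up to 4 per list and those nearest outside the window. The genes, lists and comparisons were chosen with earlier results of these data known. GTCTGCCG, the zone around it and the identity of upstream regions were added after the values were seen. Alternatives are given in the closing section. The shared gene sequence of the largest family is not reported here.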

Additional observations from a re-analysis of the deposited data

How the results depend on the processing

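The count of 9 genes with a summit, and of 5 in the 102-base family, stayed at 9 and 5 with windows of 100 or 500 bp, with peaks overlapping the gene, and with neighbouring genes taken as 1 locus. Leaving out genes near tRNA, snoRNA or sls- genes removed none and so tested nothing. In the conservative list it was 7, with 5 in the 102-base family and a median position of 15 bp in place of 38, and it was 13 at an IDR of 0.05. Using 1 replicate alone gave 2 to 3 genes, 1 to 2 in the 102-base family, a median signal of 59.2 to 82.7 and a median position of 51 to 86.5 bp, and 0 to 1 listed protein-coding genes. At an IDR of 0.001 only W05B2.8 was left, so both counts were 1 and the median signal 189. The median signal was 78.3 at an IDR of 0.05. A promoter window of 500 bp upstream and 100 bp downstream left 1 listed gene, and the conservative list had snr-4 and prp-19 in place of mog-4 and snrp-200. CGGAACCC was upstream of 26 snRNA genes in windows of 100 and of 150 bp, and no smy- gene had a summit under any of these settings. No paired analysis was possible because there is 1 group, with no second group to pair its replicates with. The replicates' lists differ in length, 178 and 319 peaks, and depth is unknown.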

Other observations

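Outside the snRNA genes, GTCTGCCG was found in the 100 bp upstream of 26 genes, and 3 of these had a thresholded summit within 200 bp. Such a summit was found at 2.49% of all nuclear genes and 6.40% of the short genes outside the protein-coding class. The 3 genes were mrpr-1, the gene for the RNA of RNase MRP, with a signal of 88.3, the snoRNA gene Y38F2AR.14 with 129, and the ncRNA gene T02C12.6 with 69.0. On the gene's own strand and between 60 and 50 bp upstream, the word was found at 10 genes, of which 6 had a summit, namely the 5 snRNA genes and mrpr-1. The word and this zone were chosen from those 5 snRNA genes, so their summits were fixed in advance. Among the 5 other genes of the zone, 1 had a summit. With TATATA in the same window 8 of the 10 genes remained, and the same 6 had a summit. The other two were the ncRNA genes M163.12, with a ranked signal of 61.6, and W01D2.9, with 44.8. M163.12 lies on the X chromosome near M163.13 and carries both words at the same distances, 54 and 30 bp upstream. The word was chosen on these data, so the counts describe these lists and were not tested.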
